A study of Mus musculus with 12 samples.

Results

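Expression of 9 genes of monocytes and interstitial macrophages, Ly6c2, Cx3cr1, C1qa, C1qb, C1qc, Csf1r, Spp1, Gpnmb and Trem2, was examined in whole lungs of mice given lipopolysaccharide (LPS), an endotoxin of Gram-negative bacteria that was used in the study to model acute lung injury (ALI). The genes were chosen by name, with earlier results of these data known, and all 9 were found among the 55414 genes of the table. Lungs came from 12 LPS-treated mice and were taken on day 4. In 6 IL-10 B-KO mice, a floxed Il10 gene is deleted by Mb1-Cre, a recombinase expressed from the Cd79a gene of B cells, and the other 6 were IL-10 B-WT mice, their controls. The mice were on a C57BL/6 J background. No mice without LPS were analysed here, so that every comparison is between genotypes under LPS. Ages are not given in the sources used here, and the labels do not say whether each library is 1 animal, although the series' design text counts 12 mice, so that p-values measure the spread between these samples.

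Monocytes are made in the bone marrow and enter inflamed tissue from the blood. Classical monocytes carry Ly6C and respond to CCL2, patrolling monocytes carry more of the fractalkine receptor CX3CR1, and both carry the receptor CSF1R. In the lung, macrophages of the interstitium lie between airway, vessel and alveolus, many descend from monocytes, and they are a major source of the complement protein C1q. Macrophages that take up lipid and debris express Trem2, Gpnmb and Spp1. These genes are also expressed by other cells, and in whole lung, more cells of a type and more RNA per cell cannot be told apart.

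The Ly6c2 value needs its sequence context, because Ly6c2 (ENSMUSG00000022584, chromosome 15, 75108158 to 75111970, minus strand, GRCm38) has a near-identical neighbour, Ly6c1 (75044018 to 75048830, minus strand), which is abundant in endothelium. The genes are 59327 bases apart. In GENCODE release M21, the coding sequences of their first listed transcripts both hold 396 bases, stop codon included, and share 387 of them (97.73%). The longest run without a difference is 188 bases. The stretch with most differences, coding bases 1 to 120 counted from the A of the start codon, is shown to make visible how few coding bases differ, with the 6 that do in capitals. The untranslated parts were not compared.

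Ly6c1: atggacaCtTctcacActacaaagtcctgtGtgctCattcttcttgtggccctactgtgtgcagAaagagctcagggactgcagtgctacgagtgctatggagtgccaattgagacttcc
Ly6c2: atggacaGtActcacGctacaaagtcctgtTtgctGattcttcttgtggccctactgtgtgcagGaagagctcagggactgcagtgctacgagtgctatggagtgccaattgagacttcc

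Reads that lie in identical runs can be assigned to either gene, and how RSEM divided them was not tested. The values of Ly6c2 are therefore uncertain by an amount that was not measured. The 3 C1q genes also sit together, within 18675 bases of chromosome 4 (136880129 to 136898803, minus strand), in the order C1qb, C1qc, C1qa, with gaps of 3616 and 2851 bases. Since the C1q genes moved most closely together and Trem2 differed most between genotypes, the 250 bases before the start site are shown for C1qb (chr4:136886201-136886450, minus strand), C1qc (chr4:136892915-136893164, minus strand) and Trem2 (chr17:48346151-48346400, plus strand), from RefSeq on GRCm38.p6. Capitals mark matches, on either strand, to PU.1 (GAGGAA), MAF (TGCTGA), M-box (CATGTG), AP-1 (TGANTCA) or C/EBP (TTNNGNAA) letters.

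C1qb: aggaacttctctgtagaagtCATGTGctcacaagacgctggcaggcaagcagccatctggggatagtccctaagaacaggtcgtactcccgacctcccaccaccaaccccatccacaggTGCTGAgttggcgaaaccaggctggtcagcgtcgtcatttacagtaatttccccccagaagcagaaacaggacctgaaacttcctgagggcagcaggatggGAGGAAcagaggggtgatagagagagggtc
C1qc: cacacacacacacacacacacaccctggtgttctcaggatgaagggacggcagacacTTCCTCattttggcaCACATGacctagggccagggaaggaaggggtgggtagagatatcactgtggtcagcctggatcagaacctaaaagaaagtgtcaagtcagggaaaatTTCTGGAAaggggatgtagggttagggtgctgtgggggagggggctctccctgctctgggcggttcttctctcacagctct
Trem2: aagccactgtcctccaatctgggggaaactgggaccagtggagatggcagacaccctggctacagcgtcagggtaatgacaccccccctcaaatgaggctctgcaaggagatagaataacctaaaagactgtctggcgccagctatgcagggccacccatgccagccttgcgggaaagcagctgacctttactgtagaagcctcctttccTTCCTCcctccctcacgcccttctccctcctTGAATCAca

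Both C1q windows hold a PU.1 and an M-box match, and none of the matches shown overlap. Windows of 300 bases, the 250 shown and the 50 after the start, were at hand for 7 of the 9 genes, 9 windows in all. Spp1 and Ly6c2 each had more than 1. Those of Ly6c2 overlap, so that the same match can count in both. PU.1 letters, those of the myeloid factor PU.1, were in 6 of the 9 windows and in 28.3% of all 32851 windows. C/EBP letters were in 6 of 9, against 40.7%, M-box letters in 2 of 9, against 14.2%, AP-1 letters in 2 of 9, against 7.81%, and MAF letters in 1 of 9, against 19.5%. The E-box (CACGTG) was in 0 of 9, against 7.15%. These are letter matches and not measured binding.

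The libraries were checked first. Cd79a, a signaling chain of the B cell receptor and the locus that carries Mb1-Cre, separated the groups: the IL-10 B-WT lungs held 15.3 TPM or more and the IL-10 B-KO lungs 5.73 TPM or less. TPM is a share of the reads per length of the gene, set to the same total in each library. The B cell genes Cd79a, Cd79b, Ms4a1 and Pax5 summed to 47.1 to 578.8 TPM in IL-10 B-WT lungs. They summed to 3.4 to 6.9 TPM in IL-10 B-KO replicates 1, 3, 4 and 5, but to 51.0 TPM in replicate 2 and 34.0 TPM in replicate 6. Replicate 2 thus reached the IL-10 B-WT range. As groups, the genotypes differed in B cell transcripts as well as in the Il10 deletion. Which of these goes with the values of the 9 genes was not tested. Results are also given without replicates 2 and 6, which keeps only IL-10 B-KO lungs with few B cell transcripts. IL-10 B-KO replicate 2 held low values of the 9 genes and IL-10 B-WT replicate 1 high ones, as described below. Cd79a of each lay on the side of its label. Whether a library carries the wrong label was not tested, and the comparison of genotypes rests on the labels as given. Il10 itself was listed at 0 to 0.88 TPM in IL-10 B-WT and 0 to 0.58 TPM in lungs of IL-10 B-KO mice and did not separate the groups (two-sided exact permutation test, p = 0.745, n = 6).

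All 9 genes had higher mean log2 values in IL-10 B-KO lungs, and 0 of 9 passed the threshold for a differentially expressed gene (DEG), an adjusted p of 0.05 or less together with a log2 fold change of 1 or more in either direction (limma on log2(TPM + 1), Benjamini-Hochberg). DEGs made up 0.495% of the 15148 genes tested. The lowest adjusted p among the 9 genes was 0.297 for Trem2 (limma). An unadjusted p of at most 0.05 was found for 7 of 9 genes, all higher in IL-10 B-KO lungs, where 6.83% of all genes were called in that direction, and for 0 of 9 in the other direction, where 5.71% were called. Of all genes, 63.2% had a positive log2 fold change. By the two-sided exact permutation test, 4 of 9 genes had a p of at most 0.05, the 3 C1q genes and Trem2 (n = 6 per group). This test was run only for the 9 genes, Ly6c1, Il10 and Cd79a, so that no share over all genes stands beside this count. The groups did not overlap for 0 of 9 genes, against 0.0924% of all genes with every IL-10 B-KO lung above every IL-10 B-WT lung. The median log2 fold change was 1.48 over the 9 genes and 0.0989 over all genes tested. Because the 9 genes were chosen with earlier results of these data known, these counts and medians are a description and not a test of the set. Without IL-10 B-KO replicates 2 and 6, a choice made after seeing the data, 7 of 9 genes again had such a p in limma, where 9.22% of all genes did in that direction, none passed the DEG threshold, and the median was 1.82.

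**Figure D1:**
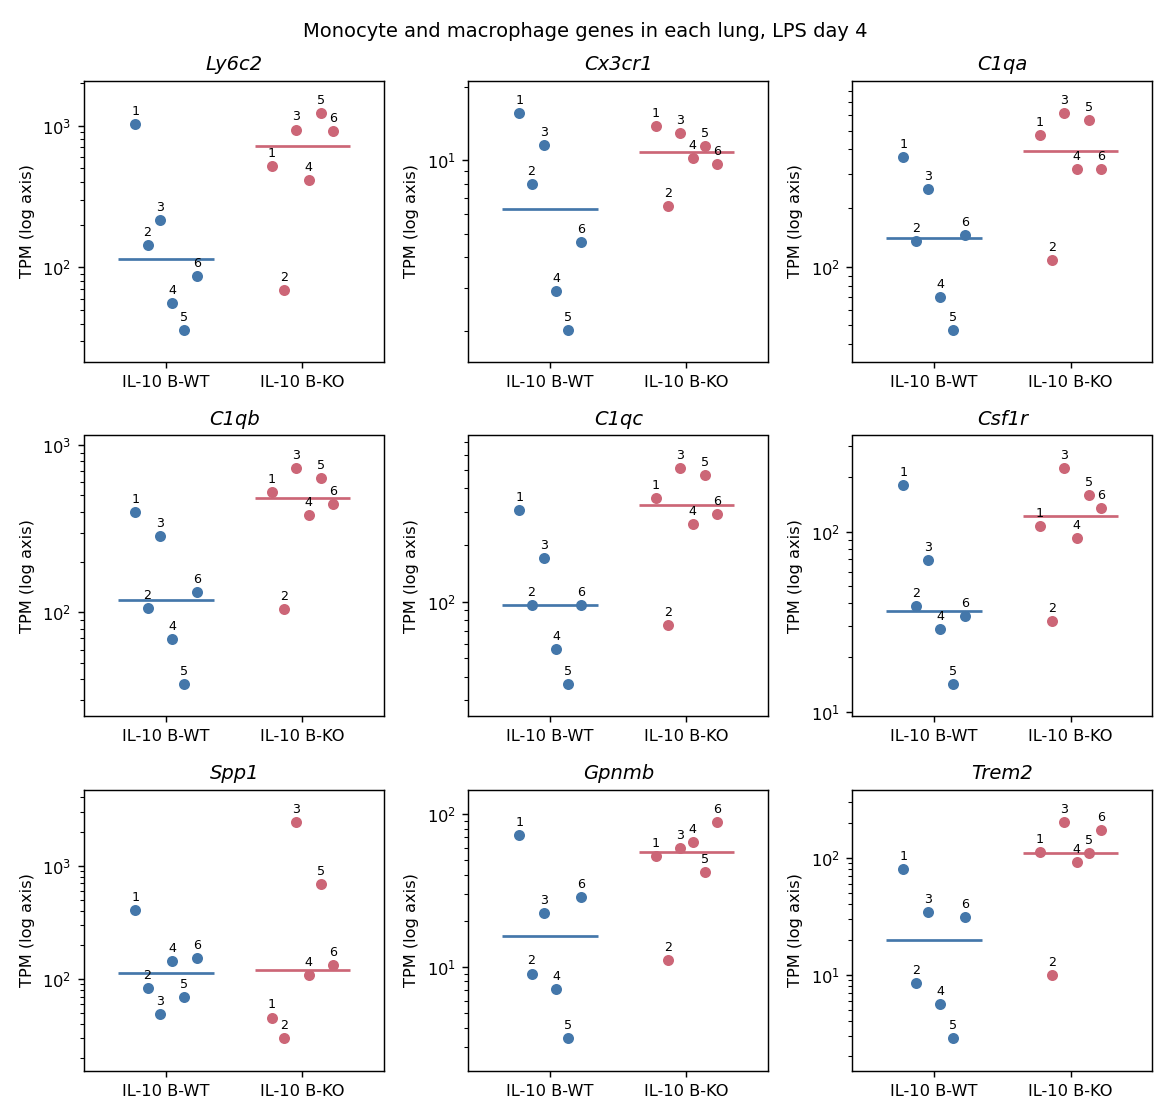
TPM (log axis) of the 9 genes in each lung, with the replicate number beside each point and a line at the median of the 6 lungs of each genotype. IL-10 B-WT replicate 1 lies above all other IL-10 B-WT lungs for all 9 genes, and IL-10 B-KO replicate 2 is the lowest IL-10 B-KO lung for all 9.

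Within both genotypes, 1 lung stood apart in the same direction for nearly all genes. IL-10 B-WT replicate 1 was among the 6 highest of the 12 lungs for 9 of 9 genes, and no other IL-10 B-WT lung was there for more than 1. IL-10 B-KO replicate 2 was among the 6 highest for 0 of 9 genes, whereas the other 5 IL-10 B-KO lungs were there for 8 or 9. IL-10 B-WT replicate 5 was the lowest of all 12 lungs for 8 of 9 genes, all but Spp1. Without IL-10 B-WT replicate 1, Trem2 passed the DEG threshold (log2 fold change 2.85, adjusted p = 0.0498 in limma), as did 3.85% of all genes, against 0.495% with all lungs. With either IL-10 B-WT replicate 5 or 4 left out, the number of genes with an unadjusted p of at most 0.05 was 3 and 4, respectively, in place of 7. Of all genes, 3.19% and 4.02% then had such a p in the higher direction, against 6.83% with all lungs. The number was also 4 without IL-10 B-KO replicate 1, 3 or 6, where 5.04%, 3.25% and 4.35% of all genes did.

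**Figure D2:**
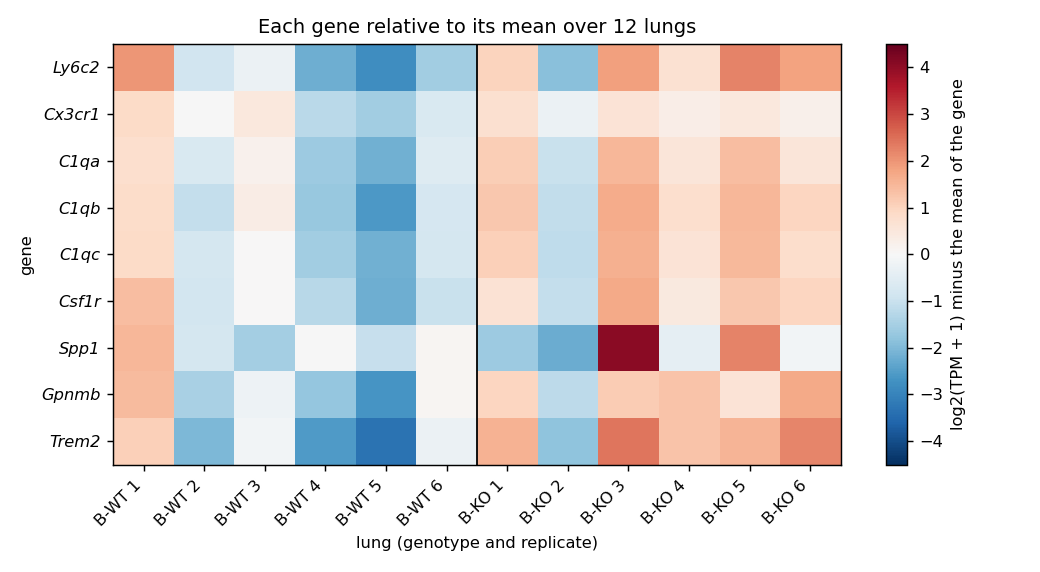
Each gene's log2(TPM + 1) minus its mean over the 12 lungs, as a colour per lung (columns, by genotype and replicate) and gene (rows). All 9 genes are above their mean in IL-10 B-WT replicate 1 and below it in IL-10 B-KO replicate 2, while IL-10 B-WT replicate 3 is mixed and the Spp1 row differs from the others in several lungs.

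Ly6c2, which encodes part of the Ly6C antigen of classical monocytes, ranged from 36.27 through a median of 114.7 to 1018.69 TPM in IL-10 B-WT lungs. In IL-10 B-KO lungs it ranged from 69.43 through 721.1 to 1216.58 TPM. The top IL-10 B-WT value was that of replicate 1, the next being 216.42 TPM, and the lowest IL-10 B-KO value that of replicate 2. The log2 fold change was 1.90 ± 0.81 (SE, n = 6 per group, adjusted p = 0.367 in limma), and the exact permutation test gave p = 0.0736. Ly6c1 was more abundant, at 660.26 to 2230.22 TPM in IL-10 B-WT and 1489.91 to 4276.95 TPM in IL-10 B-KO lungs (log2 fold change 0.80 ± 0.31, adjusted p = 0.345 in limma). With the TPM of both genes summed, the log2 fold change was 0.93 (adjusted p = 0.327 in limma), against 1.90 for Ly6c2 alone. Of 7 tested genes of the Ly6 family at this locus, 5 were higher and 2 lower, the extremes being Ly6i at 2.76 ± 1.21 and Ly6d at −2.11 ± 0.62. Of the summed TPM of both genes, Ly6c2 made up 3.09 to 31.4% in IL-10 B-WT and between 4.07 and 29.2% in IL-10 B-KO lungs.

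Cx3cr1 (ENSMUSG00000052336, chromosome 9, 119901616 to 120069879, minus strand), the fractalkine receptor of patrolling monocytes and tissue macrophages, was the least abundant of the 9 genes. It ranged from 2.02 through 6.29 to 15.54 TPM in lungs of IL-10 B-WT mice and from 6.47 through 10.79 to 13.74 TPM in IL-10 B-KO lungs. The highest value of all 12 lungs was that of IL-10 B-WT replicate 1, and all 6 IL-10 B-KO lungs lay above the IL-10 B-WT median. The log2 fold change of 0.70 ± 0.38 (SE, n = 6) had an adjusted p of 0.458 in limma. Ly6c2 divided by Cx3cr1 lay between 18.0 and 19.1 in IL-10 B-WT replicates 2 to 6, although Cx3cr1 itself spanned 2.02 to 11.58 TPM among them, and was 65.6 in replicate 1. In IL-10 B-KO lungs the ratio was 10.7 in replicate 2 and 38.0 to 106 in the others. It was computed as a description and not tested.

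**Figure D3:**
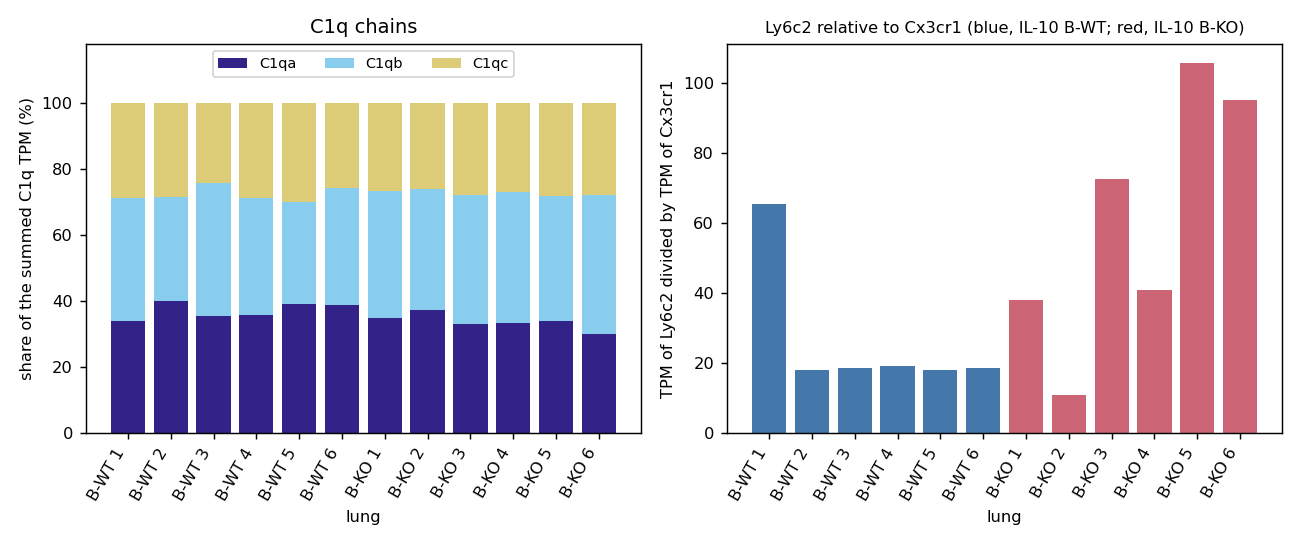
Left, share of each chain in the summed TPM of C1qa, C1qb and C1qc (%) in each lung. Right, TPM of Ly6c2 divided by TPM of Cx3cr1 in each lung. The chain shares stay within 24.1 and 42.0% in all 12 lungs, and the ratio spans 10.7 to 106.

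Csf1r (ENSMUSG00000024621, plus strand), the receptor for CSF1 and IL-34 on monocytes and macrophages, ranged from 14.23 through 36.22 to 180.52 TPM in IL-10 B-WT lungs. In IL-10 B-KO lungs it ranged from 32.01 through 121.4 to 225.74 TPM. IL-10 B-WT replicate 1 held the second highest value of the 12 lungs, and 5 of 6 IL-10 B-KO lungs lay above the IL-10 B-WT median. The log2 fold change was 1.28 ± 0.55 (SE, n = 6, adjusted p = 0.375 in limma, exact permutation p = 0.0758). Of 9 genes for CSF1R ligands and macrophage transcription factors, 7 were higher and 2 lower, 2 and 1 of them with an unadjusted p of at most 0.05, and 0 were DEGs. The largest positive value was 1.26 ± 0.53 for Spi1, which encodes the myeloid factor PU.1, and the largest negative one −0.69 ± 0.19 for Klf4, a factor of monocyte development also found in endothelium.

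C1qa, C1qb and C1qc encode the A, B and C chains, which together form C1q, the recognition part of the first complement component. C1qb (ENSMUSG00000036905, promoter shown above) ranged from 37.39 through 119.4 to 399.86 TPM in lungs of IL-10 B-WT mice and from 104.99 through 480.7 to 728.89 TPM in the knockouts. Its log2 fold change was 1.65 ± 0.58 (SE, n = 6, adjusted p = 0.304 in limma, exact permutation p = 0.0303), and 4 IL-10 B-KO lungs exceeded every IL-10 B-WT lung. C1qc (ENSMUSG00000036896) ranged from 36.59 to 307.61 TPM and from 75.15 to 513.04 TPM, with a log2 fold change of 1.48 ± 0.53. C1qa (ENSMUSG00000036887) ranged from 47.65 to 364.04 TPM and from 107.81 to 612.25 TPM, with a log2 fold change of 1.36 ± 0.51. For both, 3 IL-10 B-KO lungs exceeded every IL-10 B-WT lung. The chains kept near-constant proportions while their sum spanned 121.6 to 1854.2 TPM. C1qa made up 37.2 ± 2.48% (SD, n = 6) of the sum in IL-10 B-WT lungs, compared with 33.8 ± 2.41% in IL-10 B-KO lungs, C1qb 35.2 ± 3.65% and 39.0 ± 1.86%, and C1qc 27.6 ± 2.26% and 27.2 ± 0.79%. Among the C1q partners, regulators and receptors, which include the C1r and C1s proteases, 11 of 14 genes were tested, and the unadjusted p was 0.05 or less for 0 of them. Their median log2 fold change was 0.26, and the largest was 0.76 ± 0.52 for C3.

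Trem2 (ENSMUSG00000023992, chromosome 17, 48346401 to 48354147, plus strand), a lipid-sensing receptor of macrophages, ranged from 2.84 through 19.76 to 80.21 TPM in IL-10 B-WT lungs. In IL-10 B-KO lungs it ranged from 9.99 through 111.3 to 201.67 TPM. The 5 IL-10 B-KO lungs other than replicate 2 lay above every IL-10 B-WT lung, so that the groups no longer overlapped without replicate 2, a setting in which 0.487% of all genes were separated in that direction, against 0.0924% with all lungs. The log2 fold change was 2.39 ± 0.81 (SE, n = 6, exact permutation p = 0.0325). All 12 tested genes of the TREM2 signaling list, which also holds other receptors such as Trem1, Trem3 and Cd33, were higher, and 0 were DEGs. An unadjusted p of at most 0.05 was found for 5 of them, Tyrobp, Hcst, Trem1, Trem3 and Cd33. For Syk, Plcg2 and Inpp5d the unadjusted p was 0.171, 0.311 and 0.155 in limma. The largest value was 1.67 ± 0.55 for Cd33. Tyrobp, named after its values were seen, encodes the adaptor through which TREM2 signals and had a log2 fold change of 1.64 ± 0.54 (adjusted p = 0.286 in limma).

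Gpnmb (ENSMUSG00000029816, chromosome 6, 49036546 to 49070929, plus strand), a glycoprotein of lipid-laden macrophages, ranged from 3.39 through 15.75 to 72.47 TPM in IL-10 B-WT lungs. It ranged from 11.08 through 56.09 to 87.82 TPM in IL-10 B-KO lungs. The value of IL-10 B-WT replicate 1 lay within the range of the knockouts and that of replicate 2 of the knockouts within the range of the controls. The log2 fold change was 1.51 ± 0.64 (SE, n = 6, adjusted p = 0.364 in limma, exact permutation p = 0.0671). Of 5 genes for the MiT transcription factors, which act on lysosomal genes, and the GPNMB ligand Sdc4, all were higher, with 1 unadjusted p of at most 0.05 for Tfec (1.20 ± 0.48) and 0 DEGs.

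Spp1 (ENSMUSG00000029304, chromosome 5, 104435118 to 104441050, plus strand), which encodes the secreted matrix protein osteopontin, differed from the other 8 genes. It ranged from 49.03 through 113.7 to 409.05 TPM in lungs of IL-10 B-WT mice and from 29.83 through 120.7 to 2411.63 TPM in IL-10 B-KO lungs. The medians were alike, and the mean of 568.9 TPM in IL-10 B-KO lungs rested on replicates 3 and 5, at 2411.63 and 685.23 TPM. IL-10 B-KO replicates 1 and 2 held the lowest values of all 12 lungs. The log2 fold change was 0.61 ± 0.93 (SE, n = 6, adjusted p = 0.784 in limma) and was −0.13 without replicate 3. Of 9 osteopontin receptor genes, 7 were higher and 2 lower. The extremes were Cd44 at 1.02 ± 0.45 and Itga8 at −1.21 ± 0.30 (adjusted p = 0.111 in limma).

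**Figure D4:**
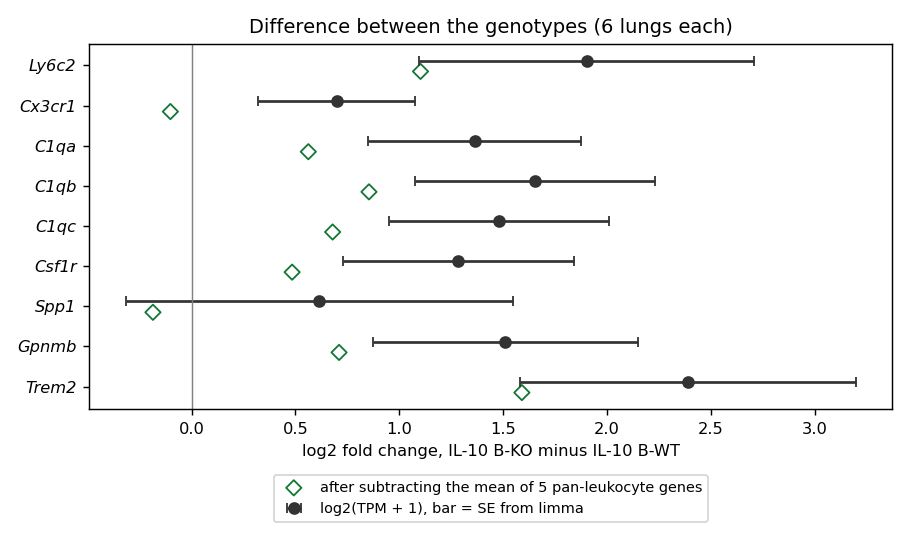
Log2 fold change of each gene, IL-10 B-KO minus IL-10 B-WT. Filled points with bars give the limma value ± SE on log2(TPM + 1), 6 lungs per genotype, and open diamonds the difference after the mean of 5 pan-leukocyte genes was subtracted in each lung. All 9 filled points lie above 0 and 7 of the 9 diamonds do.

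Pairs of genes were compared across the 12 lungs on log2(TPM + 1), 36 pairs in all. In the 28 pairs without Spp1, Pearson's r lay between 0.821 and 0.994 and Spearman's rho between 0.699 and 0.986, and all 28 had an adjusted p of at most 0.05 in permutation tests (100000 resamples, Benjamini-Hochberg over 36 pairs). The highest r, 0.994, was that of C1qc with both C1qa and C1qb (rho 0.986 in both pairs, permutation p = 1e-05, the smallest the resamples can give, adjusted p = 2.8e-05 for r and 5.1e-05 for rho). Without the 2 lungs farthest from the median of C1qa or C1qb, r was 0.993 and 0.990. Within genotype, r was 0.812 to 0.992 in IL-10 B-WT and between 0.703 and 0.998 in IL-10 B-KO lungs for these 28 pairs, and without the 2 farthest lungs 0.573 to 0.993. In the 8 pairs with Spp1, r was 0.324 to 0.633, rho 0.210 to 0.559, and 2 pairs by Pearson and 0 by Spearman had an adjusted permutation p of at most 0.05. The lungs of 1 genotype lie partly apart, so that the pooled values include the difference between genotypes.

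Among all tested genes, those most like each member over the 12 lungs (highest Pearson r, given as a description) were the other chains for each C1q gene (0.993 to 0.994). For Gpnmb, Trem2 came first at 0.971. Ly6c2 was followed by Ebi3 (0.992), Lrrc25 (0.991) and Cyba (0.989), and Csf1r by Tbxas1 (0.992), Rab3il1 (0.992) and Prelid1 (0.990). Trem2 was followed by Apoc2 (0.988), Abhd12 (0.979) and Tmem86a (0.979). Cx3cr1 was most like Pole (0.981), Knstrn (0.980) and Mcm3 (0.979), genes of DNA replication and mitosis, and its nearest member, C1qa, ranked 466th at 0.919. Spp1 was most like Rtn4rl2 (0.957), Col7a1 (0.950) and Ccn4 (0.948), and its nearest member, Csf1r, ranked 1593rd at 0.633.

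Other monocyte and macrophage lists were described in the same way. All 11 classical monocyte genes were higher, 7 with an unadjusted p of at most 0.05, with a median of 1.27 and the largest value for Itgam, the integrin chain CD11b (2.35 ± 0.79). Of 10 patrolling monocyte genes, 8 were higher and 2 lower. None of the 8 had an unadjusted p of at most 0.05, and both lower ones did, Nr4a1, a factor those cells need, being at −0.71 ± 0.31. Of 21 interstitial macrophage genes, 16 were higher, 7 of them with such a p, and 5 lower, 1 with such a p. C3ar1, a complement receptor, had 2.33 ± 0.78, and Cbr2 had −1.17 ± 0.64. In IL-10 B-WT lungs Cbr2 had a mean of 3842 TPM, against 9.25 TPM for C3ar1, and its source cells were not tested. All 17 lipid-associated macrophage genes were higher, 6 with such a p, with Arg1 at 4.19 ± 1.47. Ccl2, the ligand of CCR2, was at 2.43 ± 1.09 and Cx3cl1, the ligand of CX3CR1, at −0.90 ± 0.36. In these lists, 0 genes were DEGs.

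Markers of other cells were described in the same lungs. The 5 pan-leukocyte genes (Ptprc, Lcp1, Laptm5, Coro1a and Cd53) were all higher, 0 with an unadjusted p of at most 0.05, with a median of 0.82, and their summed level was 174.0 to 1308 TPM in IL-10 B-WT and 407.6 to 1243 TPM in IL-10 B-KO lungs. Replicate 1 of the controls had the highest sum of all 12 lungs, and replicate 2 of the knockouts the lowest of its genotype. After each lung was centred on these genes, 7 of 9 members were still higher, 2 with an unadjusted p of at most 0.05, with a median of 0.68 against −0.70 over all genes. This centring lowers the log2 fold change of every gene by the same amount and also changes the spread between lungs. Of all genes, 84 then had such a p in the higher and 1954 in the lower direction, against 1034 and 865 before it. The 2 members were Ly6c2, which differed by 1.10 (unadjusted p = 0.0356 in limma, exact permutation p = 0.0693), and Trem2, by 1.59 (unadjusted p = 0.00816 in limma, exact permutation p = 0.039). By the exact permutation test, C1qb (0.85, p = 0.026) and C1qc (0.68, p = 0.0411) also had a p of at most 0.05, so that 3 members did. The share over all genes was not computed for this test. Cx3cr1 differed by −0.10 and Spp1 by −0.19. All 11 neutrophil genes were higher, 8 with an unadjusted p of at most 0.05, and summed to 395.0 to 2587 TPM in IL-10 B-WT and 1179 to 7919 TPM in IL-10 B-KO lungs. Of 10 alveolar macrophage genes, 7 were higher, 2 with such a p, and they summed to 125.8 to 633.9 and 336.1 to 1666 TPM. Among 8 endothelial genes, Ly6c1 was the 1 higher gene and 7 were lower, 2 of them with such a p. Of the tested dendritic cell genes 3 were higher and 4 lower, of the T cell genes 3 and 3, of the platelet genes 2 and 2, and all 6 NK cell genes were higher, 0 with such a p. None of these lists had a defining marker at 0 TPM throughout, and their part in the values of the 9 genes was not tested.

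**Figure D5:**
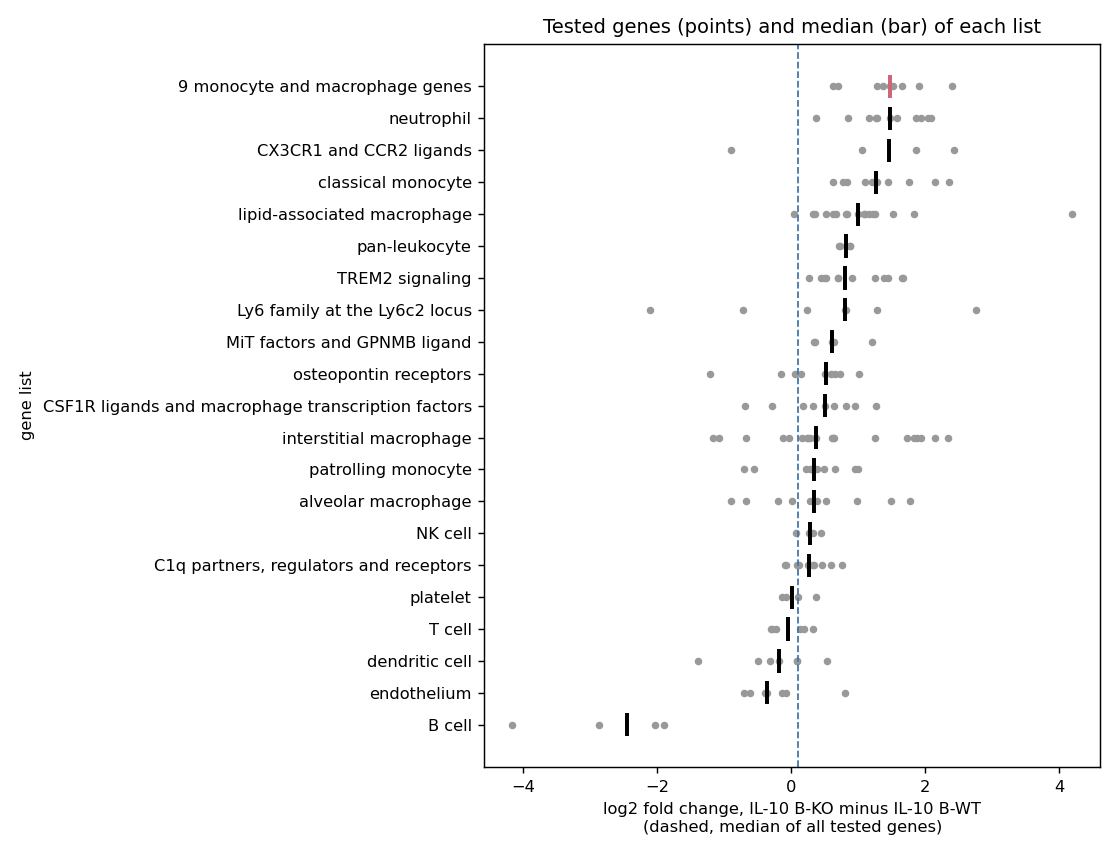
Log2 fold change, IL-10 B-KO minus IL-10 B-WT, of every tested gene (points) and the median (bar) of 20 gene lists and the 9 monocyte and macrophage genes. The 9 genes (median 1.48) and the neutrophil genes (median 1.48) lie at the top, and the B cell genes (median −2.45) at the bottom. The dashed line is the median of all tested genes (0.0989).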

How the data were processed

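Whole-lung RNA of 12 mice was sequenced. The authors deposited expression as TPM, calculated with RSEM per gene, with 1 column per library. The submitters' processing notes also name fastp, HISAT and GRCm38.p5, and versions are not given in the sources used here. TPM keep no read depth, so that no count model was fitted and precision rests on 6 lungs per genotype.

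Differences were calculated with limma 3.58.1 in R 4.3.3 (trend) on log2(TPM + 1), with genotype alone as the term, over 15148 genes that reached 1 TPM in at least 6 libraries, with Benjamini-Hochberg adjustment over all of them. On this scale the change of low genes is understated. For each member, an exact permutation test (two-sided, difference of the mean log2 values) was added (924 arrangements, smallest p 0.00216). The study lists several tools for differential expression, and which one gave its DEGs is not stated, so that limma was used here. The rest was done in Python 3.11.15 (SciPy 1.17.1, NumPy 2.4.6, matplotlib 3.10.9). Coordinates are those of GENCODE release M21 on GRCm38.

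The 9 genes and the 20 lists were chosen with earlier results of these data known. Genes named were the 9, Ly6c1, Il10, Cd79a, DEGs of the lists, the largest rise and fall of each list, and the 3 genes most like each member. Tyrobp, Hcst, Trem1, Trem3, Syk, Plcg2 and Inpp5d were named after their values were seen. Some genes are in more than 1 list. Alternatives were another pseudocount and filter, rescaling without immunoglobulin or mitochondrial genes, quantile normalization, median and pan-leukocyte centring, array weights, the replicate number as a block, each library left out, and Ly6c2 with Ly6c1 summed. Some genes of the lists are not reported here and were left out of their counts and sums.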

Additional observations from a re-analysis of the deposited data

Results flagged for a closer look

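Of 24 groups of 6 lungs (12 genes in each genotype), 6 had a lung whose gap to the nearest other lung was a large part of the group's range. The cutoff is meant to flag about 1 in 20 groups of normally distributed values, a rate not checked for these data. The genes are also not independent of each other. These ratios were taken on TPM, which are skewed to high values. On log2(TPM + 1), 5 groups were picked out, and of those below only Cd79a in IL-10 B-WT replicate 2 was among them. The other 4 were C1qb, C1qc, Gpnmb and Trem2, each with IL-10 B-KO replicate 2 far below the rest of its genotype.

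IL-10 B-WT replicate 1 lay far above the other IL-10 B-WT lungs for Ly6c2 (1018.69 TPM, next 216.42 TPM), Csf1r (180.52 TPM, next 69.62 TPM), Spp1 (409.05 TPM, next 152.86 TPM) and Gpnmb (72.47 TPM, next 28.43 TPM). In the same library the 4 B cell genes summed to 47.1 TPM, the lowest of the IL-10 B-WT lungs, while the pan-leukocyte genes summed to 1307.6 TPM, the highest of all 12.

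IL-10 B-KO replicate 3 lay far above the other IL-10 B-KO lungs for Spp1 (2411.63 TPM, next 685.23 TPM).

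IL-10 B-WT replicate 2 lay far above the other IL-10 B-WT lungs for Cd79a (258.64 TPM, next 24.8 TPM).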

How the results depend on the processing

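The count of DEGs among the 9 genes was 0 under every other setting tried, with no minimum fold change too, except without IL-10 B-WT replicate 1, where it was 1 (Trem2), so that it was 0 to 1 with single libraries left out. With single libraries left out, the count with an unadjusted p of at most 0.05 was 3 to 8, the count of genes with groups that do not overlap 0 to 1, and the median log2 fold change 1.13 to 1.86. Of all genes, 3.19 to 17.9% then had such a p in the higher direction, and 0.093 to 1.29% were separated upward. With pan-leukocyte centring, 2 of 9 genes had an unadjusted p of at most 0.05, where 0.555% of all genes did in the higher direction. Cx3cr1 (−0.10) and Spp1 (−0.19) reversed under it. Spp1 also reversed without IL-10 B-KO replicate 3 (−0.13). The cause was not tested, beyond the subtraction that the centring itself makes. The centring lowers the log2 fold change of every gene by the same amount. It moved the median of all genes from 0.0989 to −0.70, so that the distance of the 9 genes from this median stayed as it was. Without both IL-10 B-KO libraries with Cd79a above 1 TPM, added after seeing the data, 1 gene had groups that do not overlap, where 0.835% of all genes were separated upward, against 0.0924% with all lungs. Over all genes, 75 were DEGs, against 6 with no filter, 318 with array quality weights, 103 with pan-leukocyte centring, 27, 39, 36 and 45 with immunoglobulin genes left out, quantile normalization, median centring and the block, and 15 to 576 with single libraries left out. Over 208 values of single genes under alternatives, 205 were positive. With Ly6c2 and Ly6c1 summed, the log2 fold change was 0.93 (adjusted p = 0.327 in limma), against 1.90 for Ly6c2.

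The labels of both genotypes carry replicate numbers 1 to 6, and same-numbered lungs did not deviate together (correlations of −0.29 to 0.05). These correlations cannot show whether same-numbered mice were littermates or were handled together, which the labels do not say. With the replicate block, the unadjusted p was 0.05 or less for 7 of 9 genes, where 5.19% of all genes had such a p in the higher direction. The median was 1.48 and 0 of the 9 genes were DEGs. The read depth behind a TPM value is unknown, so that no detection limit can be given.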
